A study of Mus musculus with 12 samples.

Results

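The polarization effectors of macrophages are described here as 10 genes, namely Nos2, Arg1, Il1rn, Il10, Il12b, Chil3, Mgl2, Il4ra, Cd80 and Cd86. They were chosen by gene symbol among the 55281 genes annotated in the table of estimated counts. The rule uses no measured value, but earlier results of these data were known when the genes were picked. All 10 were found, and all 10 were among the 18427 genes that passed the filter on low counts.

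RNA of gonadal white adipose tissue (GWAT), the fat pad beside the testis, was sequenced in bulk in male mice. HoipA-KO mice carry Hoip fl/fl together with Adipoq-Cre, which is active in mature adipocytes, so that HOIP, the catalytic subunit of the linear ubiquitin chain assembly complex, is deleted in these cells and not by design in macrophages. WT mice are littermates with Hoip fl/fl and no Cre, so the floxed allele is shared by all 4 groups. From 6 weeks of age the mice received a control diet (CD), given as 14% fat in the labels and slightly differently in the methods of the study, or a high-fat diet (HFD) with 60% fat for 16 weeks, and tissue was taken at 22 to 24 weeks of age. The groups are WT CD, WT HFD, HoipA-KO CD and HoipA-KO HFD, with 3 libraries in each, and each library is a pool of RNA from 3 mice. A pool hides the spread between its mice, so the errors given are between pools.

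Macrophages take up different programs according to the signals around them. In mice, interferon gamma and microbial products give classical activation, with nitric oxide made from arginine by the enzyme that Nos2 encodes, with IL-12 and with the costimulatory ligands CD80 and CD86 for T cells. IL-4 and IL-13 signal through the receptor chain encoded by Il4ra to the transcription factor STAT6 and give alternative activation, with arginase, encoded by Arg1, the chitinase-like protein encoded by Chil3 and the lectin encoded by Mgl2. IL-10 restrains inflammation, and the product of Il1rn occupies the IL-1 receptor without activating it. In lean fat, resident macrophages are known for alternative markers. In obese fat, macrophages gather around dying adipocytes and carry genes of both programs. In bulk tissue, a lower number of cells of a type and less RNA per cell cannot be told apart.

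Between 30513446 and 60540225 counts were assigned to genes per library, so 3 counts, taken as the floor, stand for 0.0524 to 0.0996 CPM (counts scaled to library size, normalized by TMM, a scaling that lines up the bulk of genes between libraries). Rnf31, the gene of HOIP, was at 12.01 to 20.9 CPM in WT CD and at 17.7 to 21.8 CPM in HoipA-KO CD. Counts over the whole gene in whole tissue do not check a deletion confined to adipocytes. The authors' own comparisons leave out WT CD replicate 3, and the tests here do the same and use 11 libraries. Values over all 12 libraries are given beside them where the call of a member differs, and counts of list genes over the 12 libraries where they differ. Transcripts of epididymal epithelium, summed over 8 markers, reached 14782 CPM in WT CD replicate 2 and 1310 CPM in HoipA-KO HFD replicate 1, and at most 97.1 CPM in the other libraries. The sum of 9 macrophage markers was 253 to 437 CPM in WT CD, 1028 to 3127 CPM in WT HFD, 4209 to 4592 CPM in HoipA-KO CD and 3709 to 5191 CPM in HoipA-KO HFD. The sum of 10 adipocyte markers was 13057 to 49265 CPM in WT CD and 6040 to 9164 CPM in HoipA-KO CD. The part of these shifts in the results that follow was not tested.

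Per length of exons, levels of the 10 genes in WT CD ran from 9.60 CPM per kilobase for Mgl2 and 6.14 for Il4ra, through 1.64 for Nos2, 1.37 for Cd86 and 0.834 for Chil3, to 0.330 for Cd80, 0.213 for Arg1, 0.169 for Il1rn, 0.159 for Il10 and 0.0184 for Il12b. In HoipA-KO CD the order was another one. Il1rn stood first at 24.9 CPM per kilobase, before Il4ra at 13.5 and Mgl2 at 6.40, while Nos2 was next to last at 0.672. These are group means over 3 libraries. In WT CD the levels of Arg1, Il1rn and Il10 per length lay close together, and their order is not to be read from these means.

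The libraries of each group are shown for every gene in the plot of levels.

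**Figure D1:**
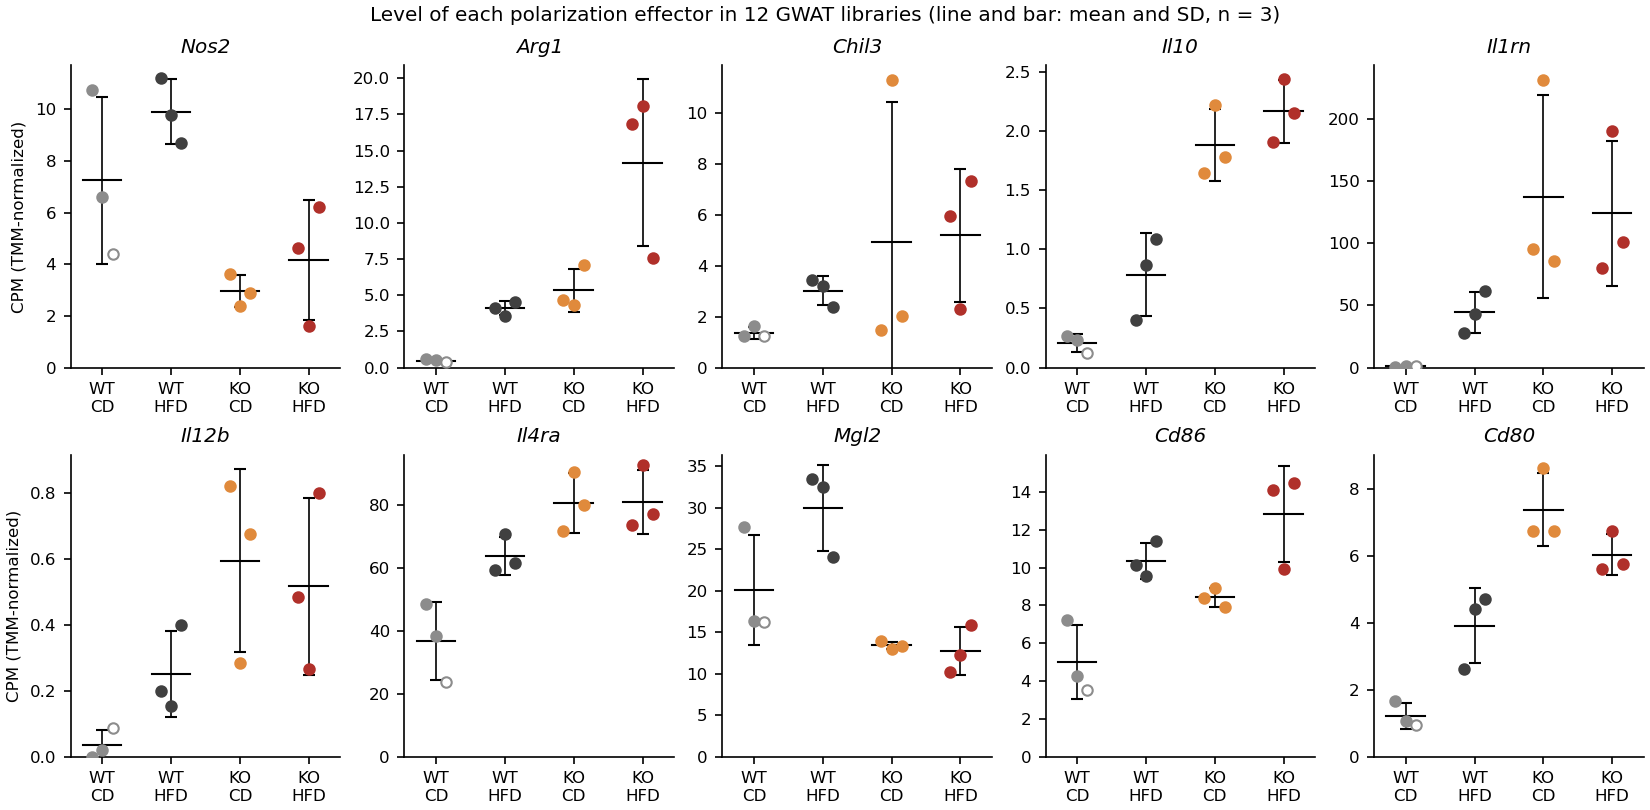
Level of each of the 10 genes in CPM (y axis, linear and from 0, with its own scale per gene) in the 3 libraries of each group (x axis, points), with the mean and the SD. The open point is WT CD replicate 3, and the SD bar of Chil3 in HoipA-KO CD is cut at 0. Il1rn lies between 0.512 and 1.48 CPM in WT CD and between 80.6 and 232 CPM in the HoipA-KO groups, whereas Nos2 is at most 3.63 CPM in HoipA-KO CD and at least 4.38 CPM in WT CD.

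Sequences before the transcription start are shown for 4 members. Il1rn, Il12b and Cd80 were higher in HoipA-KO CD than in WT CD, and Mgl2 was lower in HoipA-KO HFD than in WT HFD. The sequences are the 250 bases before a start in RefSeq on mouse build GRCm38.p6, 5′ to 3′ on the plus strand, which is the strand of all 4 genes. RefSeq windows were at hand for 6 of the 10 members. Capitals mark matches on either strand to GGG and CC with any 5 bases between them, the letters of an NF-kB site, to TTC and GAA with any 3 bases between them, those of an interferon-activated (GAS) site, to the same with any 4 bases between them, those of a STAT6 site, or to GAGGAA, those of a PU.1 site. Among 32851 promoter windows of this length, 45.8% hold the first, 7.02% the second, 5.85% the third and 23.3% the last. A match is a description of the letters and no sign of binding.
Il1rn, chr2:24336610-24336859: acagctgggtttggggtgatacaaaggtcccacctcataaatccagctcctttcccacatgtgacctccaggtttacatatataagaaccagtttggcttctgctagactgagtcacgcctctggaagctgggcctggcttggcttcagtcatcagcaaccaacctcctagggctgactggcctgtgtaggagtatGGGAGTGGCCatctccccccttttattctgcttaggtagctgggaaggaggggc
Il12b, chr11:44399813-44400062: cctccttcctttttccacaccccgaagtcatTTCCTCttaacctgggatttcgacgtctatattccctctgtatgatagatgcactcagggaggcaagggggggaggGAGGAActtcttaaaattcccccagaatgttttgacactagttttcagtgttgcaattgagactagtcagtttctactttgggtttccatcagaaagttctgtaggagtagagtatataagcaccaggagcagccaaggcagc
Cd80, chr16:38458683-38458932: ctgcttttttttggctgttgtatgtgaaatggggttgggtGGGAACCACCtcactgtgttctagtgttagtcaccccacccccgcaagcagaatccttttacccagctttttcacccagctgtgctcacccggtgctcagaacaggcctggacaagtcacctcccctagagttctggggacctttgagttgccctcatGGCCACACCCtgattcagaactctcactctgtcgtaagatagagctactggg
Mgl2, chr11:70130107-70130356: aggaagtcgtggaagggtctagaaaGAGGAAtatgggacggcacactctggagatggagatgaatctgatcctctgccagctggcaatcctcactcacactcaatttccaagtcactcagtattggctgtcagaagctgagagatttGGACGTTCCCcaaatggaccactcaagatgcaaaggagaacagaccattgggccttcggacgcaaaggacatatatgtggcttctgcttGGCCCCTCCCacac
Of 3 RefSeq windows of Il1rn, the one at the first start is shown, and it holds the NF-kB letters once, starting 54 bases before the start. The other windows of Il1rn overlap each other and share a single match to the STAT6 letters. It lies 121 bases before one start and 201 bases before the other. The window with the match at 201 bases also holds the NF-kB letters 51 bases before its start. The window of Cd80 holds them 210 and 52 bases before the start, and that of Mgl2 103 and 14 bases before it, so the same letters stand before a gene that was higher and before a gene that was lower in HoipA-KO GWAT. Il12b holds the PU.1 letters 219 and 143 bases before its start and no NF-kB letters. The last 28 bases of the Mgl2 window and the last 7 of the Il1rn window are annotated as exon. The Cd80 window lies within the annotated gene, before a start inside it. Il4ra, which was also called as higher on CD, has a window that is not shown. It holds none of these letters, and 151 of its bases are annotated as exon. The window of Chil3, which was not called, holds the NF-kB letters 231 bases and the GAS letters 172 bases before its start.

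On CD, 7 of the 10 genes differed between HoipA-KO and WT GWAT. Arg1, Il10, Il1rn, Il12b, Il4ra and Cd80 rose and Nos2 fell, at an adjusted p under 0.05 in edgeR's quasi-likelihood test. Among all genes tested 37.7% were called in this comparison, 18.9% as higher and 18.8% as lower. Members of both programs were among those that rose, with Arg1, Il10 and Il4ra on one side and Il12b and Cd80 on the other. Over all 12 libraries 6 rose and none was called lower, since Nos2 then had an adjusted p of 0.0521. The 3 libraries of HoipA-KO CD and the 3 of WT CD did not overlap in 9 of the 10 genes, as compared to 38.8% of all genes.

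On HFD, Arg1 and Il10 were higher and Mgl2 was lower in HoipA-KO than in WT GWAT. The other 7 genes were not called. In this comparison 11.8% of all genes were called, 4.2% as higher and 7.62% as lower. The libraries did not overlap in 7 of the 10 members and in 44.8% of all genes. Over all 12 libraries, Arg1 and Mgl2 kept their calls and Il10 had an adjusted p of 0.0817.

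In WT GWAT, HFD raised 6 of the 10 genes as compared to CD, namely Arg1, Il10, Il1rn, Il12b, Cd80 and Cd86, and all 10 log2 differences were positive. Background calls were 14.8%, with 9.35% higher and 5.47% lower. The libraries did not overlap in 8 members, and in 27.5% of all genes. With all 12 libraries Il4ra joined the genes called as higher (adjusted p = 0.0444) and Il12b left them (adjusted p = 0.0728). This comparison and that of the genotypes on CD share the WT CD libraries.

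In HoipA-KO GWAT, no member was called between HFD and CD. The share of all genes called was 0%, with 415 of the 18427 genes at an unadjusted p under 0.05 by edgeR, among them 2 members. DESeq2's Wald test called 7 genes as higher and 1 as lower, with no member among them. The 2 members were Arg1 (log2 fold change 1.39 ± 0.33 SE, unadjusted p = 0.00188 in edgeR's model) and Cd86 (0.59 ± 0.22, unadjusted p = 0.0240), with an adjusted p of 1 for each. For the others the 95% confidence interval of the log2 difference was narrow for Il4ra (-0.36 to 0.35) and wide for Chil3 (-1.58 to 1.65). The libraries of the diets did not overlap for Arg1, Cd86 and Cd80, as compared to 5.88% of all genes.

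**Figure D2:**
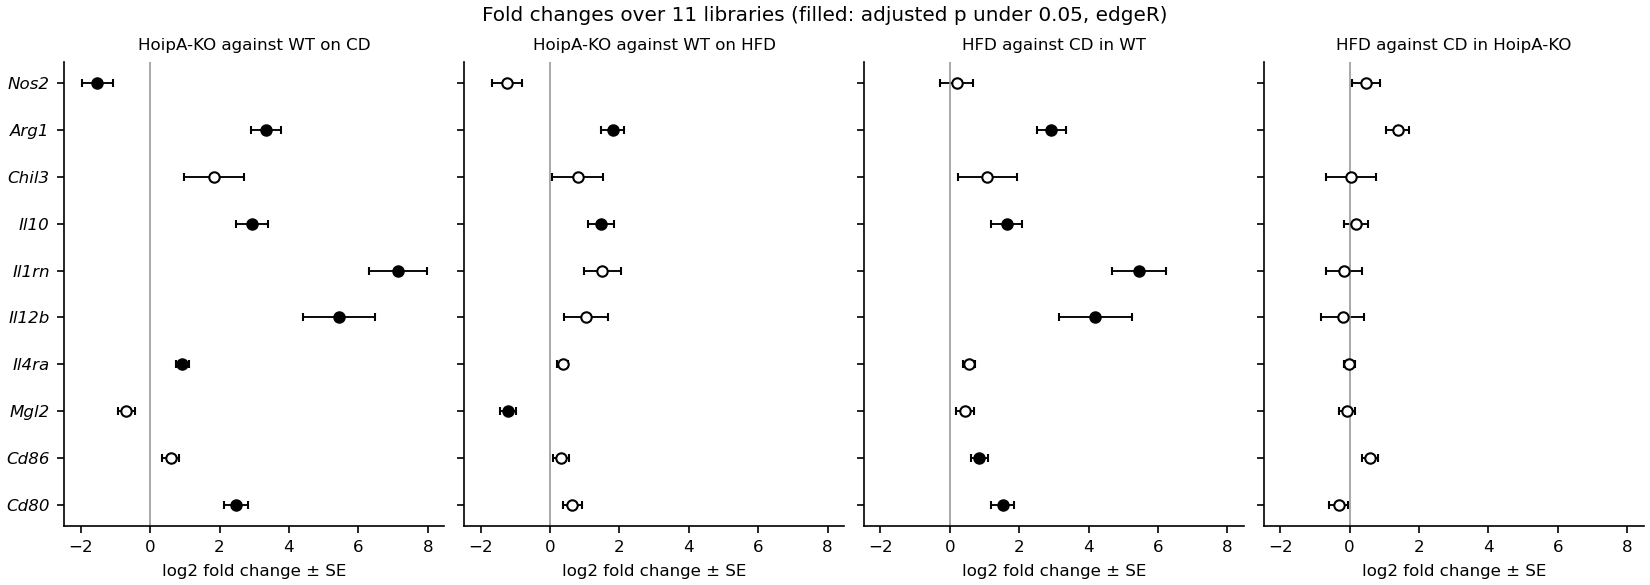
Log2 fold change of each member with its SE (x axis) in the 4 comparisons (panels), from edgeR over 11 libraries. Filled points have an adjusted p under 0.05. The largest value is that of Il1rn on CD at 7.14, and no point is filled for HFD against CD in HoipA-KO.

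Nos2 and Arg1 encode enzymes that compete for arginine, inducible nitric oxide synthase and arginase. Nos2 (chr11:78920787-78960254) stood at 10.7, 6.62 and 4.38 CPM in WT CD and at 3.63, 2.38 and 2.89 CPM in HoipA-KO CD. It was at 11.2, 9.78 and 8.71 CPM in WT HFD and at 4.64, 1.62 and 6.22 CPM in HoipA-KO HFD. HoipA-KO libraries were thus below the WT libraries on the same diet, without overlap. On CD, Nos2 fell by 1.52 on the log2 scale (SE 0.46, adjusted p = 0.0271). On HFD the log2 difference was -1.24 ± 0.42, with an adjusted p of 0.0808 in edgeR and of 0.0236 in DESeq2. The fall on CD missed the threshold without WT CD replicate 1, HoipA-KO CD replicate 2 or HoipA-KO CD replicate 3 (adjusted p 0.0528 to 0.134). HFD against CD gave 0.20 ± 0.46 in WT and 0.48 ± 0.42 in HoipA-KO, neither of them called.

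Nos2 went against the macrophage markers, which rose in HoipA-KO. Over the 11 libraries its log2 CPM was most like that of Myct1 (r = 0.977), Bcl6b (r = 0.976) and Ets2 (r = 0.975), and Myct1 and Bcl6b are known from endothelial cells. The sum of 8 endothelial markers was 410 to 1327 CPM in WT CD, 948 to 1200 CPM in WT HFD, 377 to 607 CPM in HoipA-KO CD and 421 to 747 CPM in HoipA-KO HFD. On CD 2 of these 8 markers fell, and on HFD 3 fell, as compared to 1 and 0 over all 12 libraries. Nos3, the nitric oxide synthase of endothelium, which shares no 31-base stretch with Nos2, fell by 1.56 on the log2 scale on CD (adjusted p = 0.0288) and by 1.73 on HFD (adjusted p = 0.0380), calls not kept over all 12 libraries (adjusted p 0.0743 and 0.0902). The median log2 difference of the endothelial markers was -0.80 on CD and -0.75 on HFD. Adipocyte markers fell as well, 9 of 10 on CD (median -2.08) and 10 of 10 on HFD (median -2.04, with 7 called over all 12 libraries). The part of endothelial or adipocyte RNA in the difference of Nos2 was not tested.

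Arg1 (chr10:24915221-24927484) was low in WT CD, with 20 to 24 counts per library. It was at 0.585, 0.493 and 0.349 CPM in WT CD and at 4.12, 3.59 and 4.56 CPM in WT HFD. In HoipA-KO it was at 4.69, 4.32 and 7.06 CPM on CD and at 16.8, 18.1 and 7.55 CPM on HFD. The groups formed 3 steps, with WT CD lowest, HoipA-KO HFD highest, and WT HFD and HoipA-KO CD overlapping between them. HoipA-KO raised Arg1 by 3.34 ± 0.43 on the log2 scale on CD (adjusted p = 0.000634) and by 1.81 ± 0.33 on HFD (adjusted p = 0.0147). HFD raised it by 2.93 ± 0.42 in WT (adjusted p = 0.00617). The call on HFD was lost without WT HFD replicate 1, WT HFD replicate 2 or HoipA-KO HFD replicate 2 (adjusted p 0.0612 to 0.0673), whereas the call on CD was kept in every fit with 1 library left out. The genotype effect differed between diets by -1.53 ± 0.51, which was not called (adjusted p = 0.119).

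Set against each other within a library, Arg1 over Nos2 was 0.0544 to 0.0797 in WT CD, 0.367 to 0.524 in WT HFD, 1.29 to 2.45 in HoipA-KO CD and 1.21 to 11.2 in HoipA-KO HFD, as ratios of CPM, which compare libraries and not the levels of the genes with each other. The ratios of the WT groups did not overlap with each other or with those of HoipA-KO, while the HoipA-KO groups overlapped. Arg2, the mitochondrial arginase, was at 15.9 CPM in WT CD replicate 2 and at 11.4 CPM in HoipA-KO HFD replicate 1, the libraries with the highest epididymal sums, and at 0.0192 to 2.23 CPM elsewhere. No 31-base stretch of Arg1 occurs in Arg2. The part of epididymal RNA in the level of Arg1 was not tested.

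**Figure D3:**
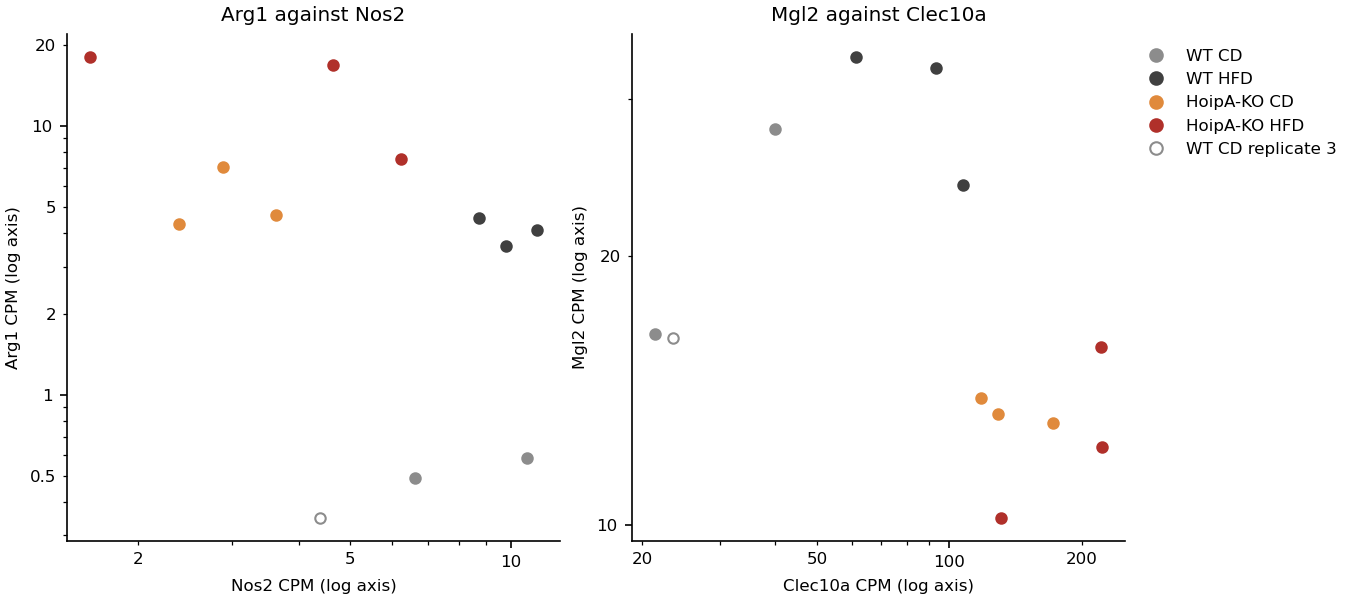
Arg1 against Nos2 (left) and Mgl2 against Clec10a (right) in CPM on log axes, 1 point per library and the open point for WT CD replicate 3. The ratio of Arg1 to Nos2 is 0.0544 to 0.0797 in WT CD and at least 1.21 in the HoipA-KO libraries, while Mgl2 over Clec10a is at least 0.691 in WT CD and at most 0.117 in HoipA-KO.

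Il1rn, which encodes the IL-1 receptor antagonist, had the largest difference of the 10 members. It lies at chr2:24336853-24351494. The libraries of WT CD were at 0.512, 1.48 and 0.820 CPM, and those of WT HFD at 27.99, 43.4 and 61.6 CPM. HoipA-KO CD libraries held 95.4, 232 and 85.9 CPM, and HoipA-KO HFD libraries 80.6, 191 and 101 CPM. The 2 HoipA-KO groups overlapped and lay above WT HFD, which lay above WT CD. Il1rn rose by 7.14 ± 0.84 on the log2 scale in HoipA-KO on CD (adjusted p = 0.000513) and by 5.46 ± 0.78 with HFD in WT (adjusted p = 0.00617), and neither call was lost when any 1 library was left out. Without WT CD replicate 2 these values were 8.12 and 6.44, and without HoipA-KO CD replicate 2 the value on CD was 6.50. On HFD the genotype difference was 1.51 ± 0.53, with an adjusted p of 0.0898 in edgeR and 0.0205 in DESeq2.

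The effect of HoipA-KO on Il1rn was smaller on HFD than on CD. The interaction of genotype and diet was -5.63 ± 0.90 on the log2 scale (adjusted p = 0.0256, with 3.91% of all genes called), and it was -5.67 over all 12 libraries (adjusted p = 0.0131). Among the 11 fits with 1 library left out, 7 missed the threshold, with adjusted p from 0.0573 to 0.0884. They left out WT CD replicate 2, WT HFD replicate 2, any of the HoipA-KO CD replicates, or HoipA-KO HFD replicate 1 or 3.

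Il1b, an agonist that Il1rn competes with, was low in GWAT, at 0.171 to 0.524 CPM in WT CD and at 0.641 to 1.65 CPM in HoipA-KO CD. It rose by 2.51 ± 0.70 on CD (adjusted p = 0.0204), a call not kept over all 12 libraries (adjusted p = 0.0669). The ratio of Il1rn to Il1b in CPM was 1.57 to 7.67 in WT CD, 35.1 to 102 in WT HFD, 117 to 149 in HoipA-KO CD and 53.0 to 536 in HoipA-KO HFD. The ratio was lowest in WT CD, without overlap with any other group. E2f8 (r = 0.994), Specc1 (r = 0.994) and Tec (r = 0.992) had the pattern most like that of Il1rn over the 11 libraries, which share their depth and composition with it.

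Il10, the gene of an anti-inflammatory cytokine (chr1:131019845-131024974), was low in all groups. It was at 0.268, 0.236 and 0.122 CPM in WT CD, at 0.398, 0.865 and 1.09 CPM in WT HFD, at 1.64, 2.22 and 1.78 CPM in HoipA-KO CD and at 1.91, 2.44 and 2.15 CPM in HoipA-KO HFD. Both HoipA-KO groups were above both WT groups without overlap. The rise in HoipA-KO was 2.93 ± 0.47 on the log2 scale on CD (adjusted p = 0.00148) and, between genotypes on HFD, 1.47 ± 0.37 (adjusted p = 0.0358), and HFD in WT gave 1.64 ± 0.45 (adjusted p = 0.0379). The call on CD held in all 11 fits with a library left out, but that on HFD was lost in 5 of them (adjusted p 0.0597 to 0.108), without WT HFD replicate 1 or 2, HoipA-KO CD replicate 1, or HoipA-KO HFD replicate 2 or 3. The call for HFD in WT was lost in 8 of the 11 (adjusted p 0.0534 to 0.158), and it remained without WT HFD replicate 1, HoipA-KO CD replicate 2 or HoipA-KO HFD replicate 2. Osm, the gene of oncostatin M, was the gene most like Il10 (r = 0.996), before Ckap4 (r = 0.993) and 3110082I17Rik (r = 0.992).

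Il12b encodes the p40 chain shared by IL-12 and IL-23, and it was near the floor (chr11:44400063-44414033). In WT CD it had 0, 1 and 5 counts, in WT HFD 6, 8 and 19, in HoipA-KO CD 41, 16 and 33, and in HoipA-KO HFD 26, 12 and 45. The WT CD libraries were below those of the other groups. In CPM terms, HoipA-KO CD held 50.9 times the level of WT CD replicates 1 and 2 (95% counting interval 8.91 to 2034) and 14.0 times that of all 3 WT CD replicates (6.20 to 39.3). WT HFD held 22.3 times the level of WT CD replicates 1 and 2 (3.73 to 907) and 6.14 times that of all 3 (2.54 to 17.9). These intervals cover counting error only. In edgeR's model the calls were made on CD between genotypes (adjusted p = 0.00364) and between diets in WT (adjusted p = 0.0289), and the fitted log2 values of 5.44 and 4.19 depend on the prior count, as a library at 0 is among the controls. The second call was lost without WT CD replicate 1, WT CD replicate 2 or WT HFD replicate 3 (adjusted p 0.0662 to 0.0921). The genes of the partner chains, Il12a and Il23a, were too low for a test, at 0.266 CPM or less and 0.535 CPM or less in all libraries. Among genes with at least 1 CPM, Gm42742 (r = 0.970), Ccr7 (r = 0.966) and Tnni2 (r = 0.964) were most like Il12b.

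Chil3 (chr3:106147554-106167564, minus strand) encodes a chitinase-like protein, also called Ym1, that alternatively activated mouse macrophages secrete. It ranged from 1.22 to 1.63 CPM in WT CD, from 2.37 to 3.45 in WT HFD, from 1.46 to 11.3 in HoipA-KO CD and from 2.29 to 7.32 in HoipA-KO HFD. The wide range of HoipA-KO CD came from replicate 2, with the other replicates at 1.46 and 2.01 CPM. No comparison was called, with log2 differences of 1.84 ± 0.87 between genotypes on CD (adjusted p = 0.120) and of 0.80 ± 0.73 between those on HFD (adjusted p = 0.473). Without HoipA-KO CD replicate 2 the difference on CD was 0.30. The gene shares 28.9% of its 31-base stretches with Chil4, so reads can be split between them. Chil4 was at 0.154 CPM or less in all libraries. Has2 (r = 0.876), Gm15387 (r = 0.863) and Thg1l (r = 0.827) had the pattern nearest to that of Chil3, with lower r than for the other members.

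Mgl2 encodes a C-type lectin of resident-type macrophages and dendritic cells (chr11:70130329-70137550) and was the member, besides Nos2, with lower values in HoipA-KO. It stood at 27.7, 16.4 and 16.2 CPM in WT CD and at 13.9, 12.996 and 13.3 CPM in HoipA-KO CD. On HFD it stood at 33.4, 32.4 and 24.0 CPM in WT and at 10.2, 12.2 and 15.8 CPM in HoipA-KO. The genotypes did not overlap on either diet, although the gap on CD was small. Mgl2 fell by 1.21 on the log2 scale on HFD (SE 0.23, adjusted p = 0.0159). On CD the difference was -0.68 ± 0.25 with an adjusted p of 0.0582 in edgeR and 0.0286 in DESeq2. The fall on HFD was lost without WT HFD replicate 1, WT HFD replicate 2 or HoipA-KO HFD replicate 2 (adjusted p 0.0650 to 0.0658). On CD the difference was -0.27 without WT CD replicate 1 and -1.004 without WT CD replicate 2.

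Clec10a, the neighbouring and closely related lectin gene, went the other way. It rose by 2.23 ± 0.39 on CD (adjusted p = 0.00231) and by 1.16 ± 0.32 on HFD (adjusted p = 0.0471, which was 0.0762 with all 12 libraries), with 21.3 to 40.1 CPM in WT CD and 118 to 172 CPM in HoipA-KO CD. The ratio of Mgl2 to Clec10a in CPM was 0.691 to 0.767 in WT CD, 0.224 to 0.544 in WT HFD, 0.0754 to 0.117 in HoipA-KO CD and 0.0549 to 0.0778 in HoipA-KO HFD. Mgl2 shares 19.3% of its 31-base stretches with Clec10a, so its level is uncertain by the reads that could be assigned to either gene. Cyyr1 (r = 0.969), Trib2 (r = 0.967) and Fsd2 (r = 0.965) were most like Mgl2.

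Il4ra, which encodes the receptor chain common to IL-4 and IL-13 (chr7:125552120-125579474), is expressed beyond macrophages. It was at 48.6, 38.3 and 23.7 CPM in WT CD, and at 71.7, 90.6 and 80.1 CPM in HoipA-KO CD. WT HFD was at 59.4 to 70.9 CPM and HoipA-KO HFD at 73.6 to 92.8 CPM. It rose by 0.93 ± 0.18 on the log2 scale in HoipA-KO on CD (adjusted p = 0.00396), the smallest of the rises called on CD. The call held without any 1 library. On HFD the difference was 0.36 ± 0.16 (adjusted p = 0.149), and HFD in WT gave 0.56 ± 0.18 (adjusted p = 0.0625). An antisense transcript, Gm44876, overlaps 1342 bases of Il4ra, and reads of the pair cannot be told apart if the counting did not use strand. Arhgap1 (r = 0.979), P4ha1 (r = 0.979) and Cd109 (r = 0.976) were most like it. Of its ligands, Il4 was at 0.327 CPM or less in all libraries and was not called on CD (log2 difference 2.47 ± 0.97, adjusted p = 0.0708, and 0.0334 over all 12 libraries), and Il13 was too low for a test, at 0.436 CPM or less.

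Cd80 and Cd86 encode the B7 ligands of CD28 on T cells, and they differed in their response. Cd80 (chr16:38455561-38496335) was at 1.66, 1.07 and 0.942 CPM in WT CD and at 2.62, 4.42 and 4.71 CPM in WT HFD. It was at 6.75, 8.64 and 6.75 CPM in HoipA-KO CD and at 5.60, 6.75 and 5.76 CPM in HoipA-KO HFD. All HoipA-KO libraries lay above all WT libraries. Cd80 rose by 2.47 ± 0.34 in HoipA-KO on CD (adjusted p = 0.00083), a call kept without any 1 library, and by 1.53 ± 0.33 with HFD in WT (adjusted p = 0.0168), a call lost without WT CD replicate 2, WT HFD replicate 2 or WT HFD replicate 3 (adjusted p 0.0551 to 0.0864). On HFD the genotype difference was 0.64 ± 0.28 (adjusted p = 0.146). The interaction was -1.83 ± 0.42 (adjusted p = 0.0468). It missed the threshold in 9 of the 11 fits with a library left out (adjusted p 0.0580 to 0.128) and held without WT CD replicate 1 and without WT HFD replicate 1.

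Cd86 (chr16:36603869-36666081, minus strand) was at 7.24, 4.26 and 3.54 CPM in WT CD and at 7.92 to 8.92 CPM in HoipA-KO CD. The groups did not overlap, but WT CD replicate 1 was near the HoipA-KO values. The log2 difference on CD was 0.59 ± 0.25 (adjusted p = 0.0903). It was 1.00 without WT CD replicate 1, where it was called (adjusted p = 0.0163), and 0.27 without WT CD replicate 2. WT HFD was at 9.55 to 11.4 CPM and HoipA-KO HFD at 9.90 to 14.5 CPM, and these groups overlapped. HFD in WT raised Cd86 by 0.86 ± 0.25 (adjusted p = 0.0498), at the edge of the threshold. The call was lost in 9 of the 11 fits with a library left out (adjusted p 0.0635 to 0.230) and remained without WT CD replicate 1 and without HoipA-KO HFD replicate 2.

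As a ratio of CPM within a library, Cd80 over Cd86 was 0.229 to 0.266 in WT CD, 0.259 to 0.463 in WT HFD, 0.802 to 0.968 in HoipA-KO CD and 0.398 to 0.682 in HoipA-KO HFD. The libraries of HoipA-KO CD had the highest ratios and did not overlap with any other group. The genes most like Cd80 were Ccl6 (r = 0.994), Ptafr (r = 0.993) and Ccl9 (r = 0.991), and those most like Cd86 were Prkar1b (r = 0.944), Timeless (r = 0.938) and Trim5 (r = 0.935).

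Macrophage markers were higher in HoipA-KO as well, and each member was therefore also set against them in its own library. On CD 8 of the 9 macrophage markers rose, among them Adgre1, Csf1r, Cd68, Fcgr1, C1qa, C1qb and Cd14 with log2 values from 2.21 for Cd14 to 5.86 for Cd68, and Mertk was not called (0.71, adjusted p = 0.176). On HFD Cd68, Fcgr1, C1qa and C1qb rose, though over all 12 libraries the adjusted p of the 9 ran from 0.0757 to 0.320. With HFD in WT 8 rose. Their geometric mean was 19.2 to 31.8 CPM in WT CD, 79.3 to 229 CPM in WT HFD, 292 to 296 CPM in HoipA-KO CD and 271 to 363 CPM in HoipA-KO HFD. The ratio of a member (CPM + 0.1) to this mean was taken on the log2 scale, as a description without a test. It is a ratio of tissue RNA and assigns no transcript to a cell.

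Il12b was left out of these ratios, since the added 0.1 CPM exceeds its level in all WT CD libraries and would set the ratio. Relative to the markers, Il1rn was the one of the other 9 members that was higher in HoipA-KO than in WT on CD, by 3.57 on the log2 scale. The differences were -4.90 for Nos2, -4.07 for Mgl2, -2.82 for Cd86, -2.51 for Il4ra, -2.26 for Chil3, -1.03 for Cd80 and -0.92 for Il10. For these 8 members the libraries of the genotypes did not overlap. Il10 was at 0.122 to 0.268 CPM in WT CD, where the added 0.1 CPM lifts the ratio more than at 1.64 to 2.22 CPM in HoipA-KO CD. Its differences from WT CD, on CD and with HFD in WT, are thus larger falls than without the addition. Whether its groups overlap may depend on it too. Arg1 (-0.34) overlapped, whereas the mean CPM of Arg1 in HoipA-KO CD was 11.3 times that of WT CD over the 12 libraries. On HFD Nos2 (-2.66) and Mgl2 (-2.48) were lower without overlap, and the other 7 members overlapped between genotypes, Il1rn with a difference of 0.21. With HFD in WT, Il1rn was higher relative to the markers by 3.11, and 6 members were lower without overlap, namely Nos2 (-2.10), Mgl2 (-1.84), Il4ra (-1.76), Cd86 (-1.43), Il10 (-1.08) and Cd80 (-0.88). Of these, Cd86, Il10 and Cd80 were called as higher with HFD in WT in CPM.

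**Figure D4:**
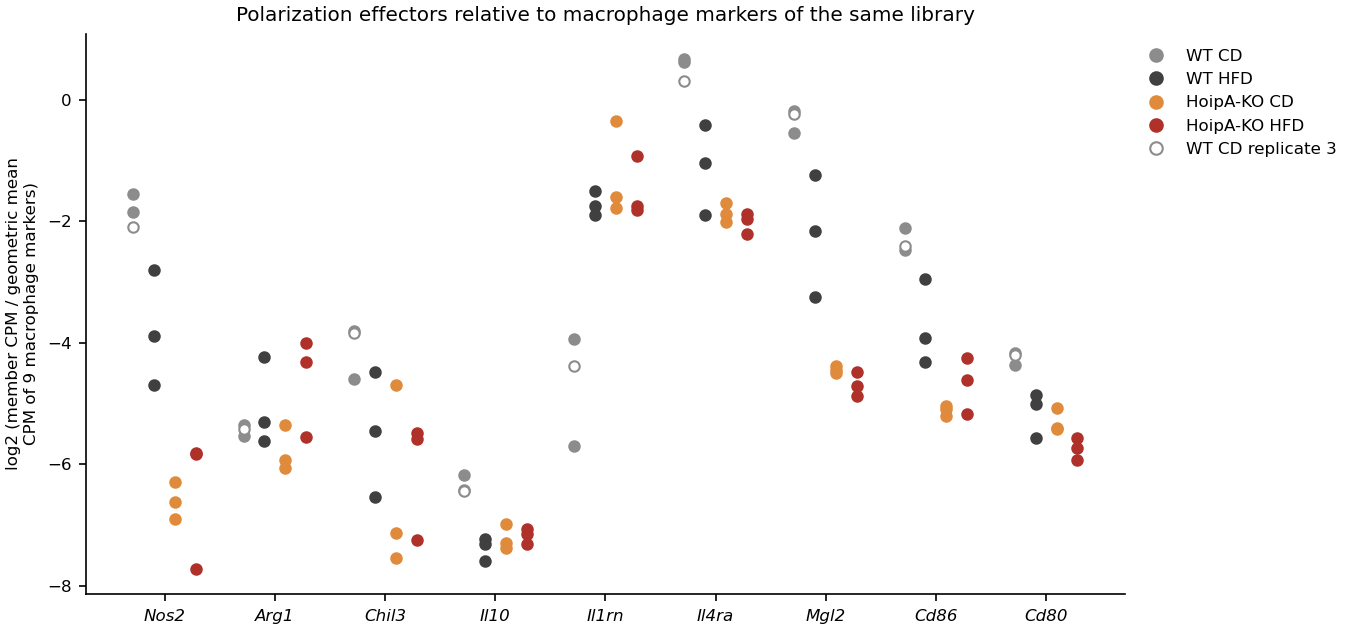
Log2 ratio of 9 members (without Il12b) to the geometric mean of 9 macrophage markers in the same library (y axis), for the 12 libraries by group (colours, open point for WT CD replicate 3). Il1rn is the member with WT CD at the bottom, 3.57 below HoipA-KO CD in the means of the 11 libraries. With 0.1 CPM added, WT CD is at the top for Nos2, Mgl2, Il4ra, Cd86, Cd80 and Il10. The differences of HoipA-KO CD minus WT CD are largest for Nos2 (-4.90) and Mgl2 (-4.07).

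The pathways around the members were followed with 9 lists of genes. Beside their counts on CD stand the shares of all genes tested, 18.9% called as higher and 18.8% as lower. Of the 16 genes tested in the list of classical activation, 10 rose and 1 fell on CD, with a median log2 difference of 1.75, as compared to -0.06 over all genes tested. Itgax (6.44) and Irf5 (3.95), the most abundant of the list, rose, and Cxcl9, a target of interferon gamma, fell by 1.92 on the log2 scale. Of the 15 genes tested for alternative activation, 7 rose and 3 fell (median 0.83), and 6 rose and 3 fell over all 12 libraries. Msr1, a scavenger receptor, rose the most (4.65), Mrc1, the mannose receptor, rose by 2.76, and Tgm2 was not called (-0.11). Retnla, an alternative marker induced by IL-4, fell by 2.69 on CD and by 2.87 on HFD, with 77.7 to 188 CPM in WT CD and 11.3 to 26.5 CPM in HoipA-KO CD. The genes that fell in that list, Retnla, Ccl24 (-1.43) and Cd163 (-2.37), had the sign of the difference of Mgl2, opposite to that of Arg1.

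In the list of arginine handling, 2 of 12 genes rose and 3 fell on CD, with a median of 0.04, whereas 1 rose and 1 fell over all 12 libraries. Gch1, which makes the cofactor of nitric oxide synthases, rose by 2.04 while Nos2 fell. Ddah1, which degrades an inhibitor of these enzymes, fell the most, by 2.32, and its WT CD values ran from 3.19 to 51.7 CPM with the highest in replicate 2. Oat (-0.14) and Odc1 (-0.22), the most abundant of the list, were not called.

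All 7 genes of the IL-10 axis rose on CD (median 1.08), led by Il10ra (3.04), the gene of the ligand-binding receptor chain, with Il10rb at 2.01 and Jak1 at 0.67. In the IL-1 axis 4 of 5 genes rose (median 2.51, and 3 over all 12 libraries), the most in Il1a (3.36), while Il1r1, the signaling receptor, was not called (0.51). Il1rap, its partner chain, rose by 1.67, and Il1r2, a decoy receptor, by 2.77. In the axis of IL-4 and IL-13, 5 of 8 genes rose and 1 fell (median 1.02), and 6 rose and none fell over all 12 libraries, with Il2rg at 1.76, Stat6 at 0.96 and the decoy receptor gene Il13ra2 at -3.39. Il13ra2 was at 0.414, 4.78 and 0.157 CPM in WT CD, with the highest value in replicate 2, and at 0.178 to 0.348 CPM in HoipA-KO CD. In the interferon gamma axis 2 of 6 genes rose (median -0.07), Ciita (2.01) and Ifngr2 (1.66), and Ifngr1 (-0.40) was not called. Ifng itself was too low for a test, at 0.196 CPM or less in all libraries. The 4 genes tested in the IL-12 axis had adjusted p from 0.395 to 0.919 in edgeR (median log2 difference 0.53), Stat4 (0.08) and Il12rb2 (0.98) among them. Over all 12 libraries Stat4 was called as lower (adjusted p = 0.0313), a call that rests on WT CD replicate 3. Stat4 was at 242 CPM in that library, at 0.926 and 3.81 CPM in the other WT CD libraries and at 1.81 to 3.13 CPM in HoipA-KO CD. Of 8 receptors and relatives of B7, 2 rose (median 0.91), Cd276 (3.58) and Cd28 (2.15), and Cd274 was not called (0.29).

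On HFD, calls in these lists were fewer, as they were among all genes (11.8%, as compared to 37.7% on CD). In classical activation 2 of 16 genes rose, Irf5 (1.25) and Socs3 (0.97). In alternative activation Clec10a rose, and Retnla (-2.87) and Cd163 (-1.82) fell. Arginine handling had Gch1 (0.92) and Asl (0.63) higher and Nos3 lower. In the axis of IL-4 and IL-13 Il2rg was called (0.56), in the IL-10 axis Socs3, in the IL-1 axis Il1r2 (1.72) and among the relatives of B7 Cd276 (1.13), each of them higher. The lowest adjusted p was 0.0638 in the interferon gamma axis and 0.358 in the IL-12 axis. Of these, Retnla and Cd163 alone were called over all 12 libraries as well, where 2.78% of all genes were called.

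**Figure D5:**
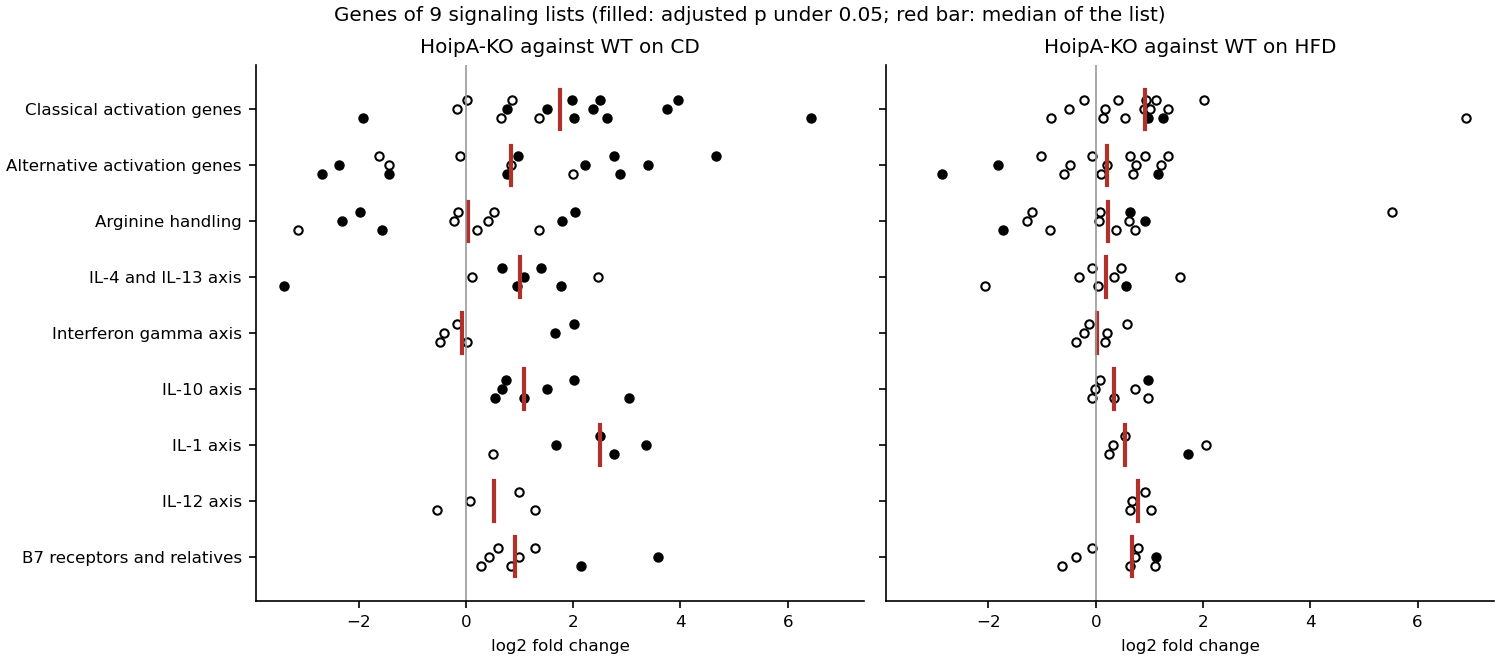
Log2 fold change of each tested gene of the 9 lists (x axis, points, filled at an adjusted p under 0.05 in edgeR) for HoipA-KO against WT on CD and on HFD, with the median of each list as a red bar. On CD the medians run from -0.07 for the interferon gamma axis to 2.51 for the IL-1 axis, and the IL-10 axis is the list with all of its points filled.

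Markers of other cells that could carry members were followed too. Among all genes tested 18.9% were called as higher on CD, a share to be read beside the counts that follow. On CD 1 of 5 neutrophil markers tested rose, and their sum was 2.96 to 6.94 CPM in WT CD and 12.7 to 26.1 CPM in HoipA-KO CD, with Ly6g at 0.0557 CPM or less in all libraries. Mast cell markers rose in 4 of 5 genes, from 20.0 to 30.4 CPM in WT CD to 548 to 657 CPM in HoipA-KO CD. Dendritic cell markers rose in 2 of 6 genes (1 over all 12 libraries), and their sums overlapped, with 15.2 to 26.7 CPM in WT CD and 19.3 to 31.8 CPM in HoipA-KO CD. Of 4 monocyte markers 1 rose, from 65.4 to 97.1 CPM in sum to 105 to 128 CPM. Eosinophil and group 2 lymphoid markers rose in 3 of 5 genes tested, with Epx, the eosinophil peroxidase, at 0.167 CPM or less in all libraries. T cell markers rose in 1 of 6 genes, and the sum of 5 B cell markers was 4.73 to 22.3 CPM in WT CD and 3.88 to 11.6 CPM in HoipA-KO CD. The part of these cells in the levels of the 10 members was not tested.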

How the data were processed

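RNA of GWAT was pooled from 3 mice per library, with 3 libraries in each of the 4 groups. Per the submitters' processing notes and the methods of the study, reads were trimmed with Trim Galore 0.6.7, aligned with STAR 2.7.10a and quantified with Salmon 1.5.2 in an nf-core pipeline. The authors deposited the estimated counts per gene, without normalization, in one table of 55281 annotated genes and in another of the 21646 that are protein-coding. The labels name mouse build GRCm38, which was used for coordinates. The authors also deposited tables of DESeq2 1.38.1 with fold changes and p-values for 3 of the comparisons, which were not used.

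The estimated counts were rounded to whole numbers. After filterByExpr and TMM normalization, 1 model of 4 group means was fitted on 11 libraries with edgeR's quasi-likelihood test (edgeR 4.0.16, R 4.3.3) and Benjamini-Hochberg adjustment over the 18427 genes at 0.05. All tests were two-sided. CPM levels were normalized over all 12 libraries, and fold changes use a prior count of 0.125. The quasi-likelihood test gives no SE. The SE printed is the size of the log2 fold change divided by the square root of the F value of its test. Confidence intervals of log2 differences use this SE with the same 9.67 degrees of freedom for every gene, so both are approximate. Nothing in the labels says that pools of a group came from separate experiments, so p-values measure the spread between these pools. Intervals of ratios are exact intervals at 95% for counts. The script was tested on simulated data.

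The members and the gene lists were chosen with earlier results of these data known, and the endothelial list, the check of Rnf31 and the fit with WT CD replicates 1 and 3 were added after seeing the data. Besides the members, the genes named are related copies and ligands, in each list the 2 most abundant genes and those with the largest rise and fall on CD, 8 of the 9 macrophage markers, and the 3 genes most like each member (Pearson's r of log2 CPM over 11 libraries, with a mean of at least 1 CPM). Other genes were named after their values were seen, and 2 genes of the lists are counted but not reported here by name. r is a description across libraries and carries no p. Alternatives were all 12 libraries, other pairs of WT CD libraries, DESeq2 1.42.0, its size factors, library size, 2 other filters, protein-coding genes, a replicate block, only the groups compared, and each library left out.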

Additional observations from a re-analysis of the deposited data

Results flagged for a closer look

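The effect of HoipA-KO differed between the diets for Il1rn and Cd80, by the test of the interaction itself. For Il1rn the log2 effect of HoipA-KO was 7.14 on CD and 1.51 on HFD, a difference of -5.63 (95% confidence interval -7.64 to -3.63, adjusted p = 0.0256 in edgeR over 11 libraries). For Cd80 it was 2.47 on CD and 0.64 on HFD, a difference of -1.83 (-2.78 to -0.89, adjusted p = 0.0468). WT CD was the lowest of the 4 groups in both genes. With 1 library left out, the call was lost in 7 of 11 fits for Il1rn and in 9 of 11 for Cd80. Of the 9 macrophage markers 5, among them Adgre1, Csf1r, Cd68 and C1qb, also had a lower effect of HoipA-KO on HFD than on CD in this test, with log2 differences of -2.21 for C1qb to -4.29 for Cd68. Their part in the differences of Il1rn and Cd80 was not tested.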

How the results depend on the processing

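On CD, 6 to 8 of the 10 members were called under the 22 alternatives, as compared to 7, and Arg1, Il10, Il1rn, Il4ra and Cd80 were called in all of them. The share of all genes called ran from 21.2% without a filter on low counts to 44.1% with at least 10 counts in every library, as compared to 37.7%. No member was called for HFD against CD in HoipA-KO under any of the 22 alternatives, with 0% to 0.0256% of all genes called. For HoipA-KO on HFD the count was 5 with DESeq2's Wald test and 0 to 3 with 1 library left out, as compared to 3, and it was 0 without WT HFD replicate 1, WT HFD replicate 2 or HoipA-KO HFD replicate 2. Of all genes 22.9% were called by the Wald test and 1.53% to 1.8% in these 3 fits, as compared to 11.8%. For HFD in WT it was 0 with only the groups compared, which leaves fewer libraries in the fit, and 2 to 6 with 1 library left out, as compared to 6, with the lowest count of 2 without WT CD replicate 2 or WT HFD replicate 3 and 3 without WT HFD replicate 2. Of all genes 0% were called with only the groups compared and 5.52% to 6.2% in these 3 fits, as compared to 14.8%. The interaction gave 4 calls with WT CD replicates 2 and 3, 1 with replicates 1 and 3, 1 without a filter on low counts and 0 to 2 with 1 library left out, as compared to 2, and 9 of the 11 libraries lowered it when left out. Of all genes 18.3%, 1.76% and 1.86% were called in the first 3 of these settings, and 0.00524% to 18.2% with 1 library left out, as compared to 3.91%. Il12b was not tested with at least 10 counts in every library, and for HFD in WT also not with only the groups compared. The cause of these differences between settings was not tested.

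Deviations of same-numbered libraries from their group means had r of -0.48 to 0.37 over 15 pairs (median 0.05, with 5 pairs over 0.1). Pairs with other numbers had r of -0.42 to 0.48 over 30 pairs (median -0.03, with 10 over 0.1). Deviations centred within such small groups depend on each other, so these values cannot show whether same-numbered libraries share a batch. With a replicate block, 7 members were called on CD, 4 on HFD, 2 for HFD in WT, 0 for HFD in HoipA-KO and 1 for the interaction, and of all genes 32%, 13.9%, 8.15%, 0% and 2.05%.

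Signs changed only for values that were not called. For HFD against CD in HoipA-KO, the log2 value of Il4ra of -0.01 became 0.0074 with all 12 libraries, 0.0051 with WT CD replicates 2 and 3, 0.0066 with replicates 1 and 3, 0.0029 with DESeq2 size factors, 0.093 with library size, 0.021 with at least 10 counts, 0.00039 with DESeq2's Wald test, 0.0087 with protein-coding genes and 0.0095 with only the groups compared. Mgl2 became 0.019 with library size. The interaction of Nos2 became -0.34 with WT CD replicates 2 and 3. With 1 library left out, values for HFD in HoipA-KO ran from -0.13 to 0.11 for Il4ra, -0.26 to 0.081 for Mgl2, -0.41 to 1.58 for Chil3, -0.64 to 0.47 for Il1rn and -0.66 to 0.10 for Il12b. Nos2 ran from -0.11 to 0.59 for HFD in WT. The interaction ran from -0.10 to 0.66 for Nos2, -1.49 to 0.50 for Chil3 and -0.69 to 0.058 for Cd86. Of 80 alternative values of the genotype differences in the ratios to macrophage markers, Il12b included, 21 moved by more than 1 SD. None changed sign where the genotypes did not overlap in the main ratios. Sign changes in members that overlapped were not counted. Depth limits Il12b, with 0 to 5 counts in WT CD.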
